A study of Mus musculus with 2 samples.

Results

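The genes described here are 7 secreted attractants and growth factors of myeloid cells: the CC chemokines Ccl2, Ccl5, Ccl7, Ccl8 and Ccl11 and the colony stimulating factors Csf1 and Csf2. They were chosen by gene symbol, and all 7 were found among the 32285 gene IDs of the files. Their counts were read in 1 Dll1+ and 1 Dll1- mouse mammary tumor, both untreated control tumors from which live CD45- cells had been sorted for droplet single-cell RNA sequencing. Dll1 is a ligand of Notch receptors that sits in the membrane of the sending cell, and the series concerns tumor cell and fibroblast differences that depend on it. The mouse strain, the age, the tumor line and the basis of the Dll1+ and Dll1- names are not stated in the labels. CD45 is a surface protein of leukocytes, so most of the cells on which these factors act had been removed before sequencing. There was 1 library per group, so no difference between the tumors has a replicate check, and no test was made. All intervals are 95% intervals for counting error alone.

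CC chemokines are small secreted proteins that form gradients along which leukocytes migrate, and each binds one or more G protein-coupled receptors of the Ccr family. Ccl2, Ccl7 and, in mouse, Ccl12 act on Ccr2, the receptor through which classical monocytes leave the bone marrow and enter inflamed tissue. Csf1 acts through the receptor tyrosine kinase Csf1r and keeps macrophages alive, and in mammary tumors macrophages depend on it. The factors are made by tumor cells, fibroblasts, mural cells and leukocytes in proportions that differ between tumors.

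The filtered libraries held 9685 Dll1+ and 10132 Dll1- cells, with medians of 7882 and 9904 unique molecular identifiers (UMIs) per cell and of 5.39% and 3.54% mitochondrial UMIs. Cells fell into epithelial-like (8199 Dll1+ and 8764 Dll1-), fibroblast-like (336 and 573), pericyte-like (314 and 174), endothelial-like (255 and 280) and Krt5-led cells (329 and 311). The last met the rule for basal cells but is called by its leading gene, because keratinocyte genes such as Krt79 and Tchh were also among its leading genes. Another 196 and 2 cells stayed unnamed. Some leukocyte RNA remained after the sort: 39 and 15 barcodes carried at least 5 UMIs from at least 3 macrophage or leukocyte markers, a rule set after the data were seen. They were taken out of the classes and are called macrophage-marked. Of these, 37 of the 39 and 15 of the 15 came from epithelial-like clusters. Csf1r, Cd68 and C1q genes were among those markers. The macrophage list summed to 10345 and 5512 CPM in these barcodes, against 13.8 and 10.4 CPM in epithelial-like cells. That list served to pick the barcodes, so this contrast was set by the rule and is no finding. At least 1 Dll1 UMI was found in 2358 of the Dll1+ and 316 of the Dll1- epithelial-like cells, in the direction of the labels. The libraries shared 109 cell barcodes, of which 57 Dll1+ and 61 Dll1- barcodes were kept. CPM is a gene's UMI sum in a class of a library, scaled to 1000000 UMIs in all, and levels are compared between cells and tumors, not between genes.

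Of the chemokines, 4 lie side by side on the plus strand of mouse chromosome 11 (mm10; gene models of GENCODE M21, all protein-coding), in the MCP cluster named after monocyte chemoattractant proteins. Ccl2 (ENSMUSG00000035385) spans 82035571 to 82037453, Ccl7 (ENSMUSG00000035373) 82045712 to 82047525, Ccl11 (ENSMUSG00000020676) 82057823 to 82062955 and Ccl8 (ENSMUSG00000009185) 82115185 to 82116799. Ccl12, which is not one of the 7 genes, lies between Ccl11 and Ccl8, and the 5 genes span 81.2 kb. Ccl5 (ENSMUSG00000035042) lies on the minus strand of the same chromosome at 83525778 to 83530518, Csf2 (ENSMUSG00000018916) on the minus strand of chromosome 11 at 54247271 to 54249667, and Csf1 (ENSMUSG00000014599) on the minus strand of chromosome 3 at 107741048 to 107760469. RefSeq promoter entries (GRCm38.p6, 250 bases before to 50 after the start) matched 3 of the 7 genes: Ccl8, Csf1 and Csf2. Ccl8 and Csf1 are shown because their entries held a motif match. Capitals mark a TATAAA match in Ccl8 (chr11:82114935-82115234, plus strand), 32 to 27 bases before the start, and an NF-kB motif match in Csf1 (chr3:107760420-107760719, minus strand), 154 to 145 bases before the start.
Ccl8: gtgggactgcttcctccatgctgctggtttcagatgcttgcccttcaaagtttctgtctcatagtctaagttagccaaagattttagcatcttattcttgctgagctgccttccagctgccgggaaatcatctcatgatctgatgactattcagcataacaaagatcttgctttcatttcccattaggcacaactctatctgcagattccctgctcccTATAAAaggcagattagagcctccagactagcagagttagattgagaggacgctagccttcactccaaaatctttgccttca
Csf1: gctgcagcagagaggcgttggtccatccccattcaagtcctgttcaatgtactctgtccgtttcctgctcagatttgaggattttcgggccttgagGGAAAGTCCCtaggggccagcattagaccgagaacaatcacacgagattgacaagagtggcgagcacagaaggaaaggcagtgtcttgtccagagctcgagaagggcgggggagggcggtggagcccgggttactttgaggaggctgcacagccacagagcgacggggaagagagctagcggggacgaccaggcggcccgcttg
The 4 motifs searched were TATAAA, the NF-kB motif, the AP-1 letters TGANTCA and the STAT letters TTCNNNGAA. TATAAA was searched on the gene's strand alone and the others on both strands. In that order, the motifs were found in 8.32%, 4.51%, 7.81% and 8.30% of 32851 RefSeq promoters of that length. The Csf2 entry (chr11:54249850-54250149, minus strand) held none of the 4. It lies wholly upstream of the start of the Csf2 gene model above (54249667), so the bases next to that start were not searched. A match describes letters only.

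The 7 genes divided between tumor cells and stroma in 3 ways. Ccl11 and Ccl8 UMIs were mostly in stromal cells and macrophage-marked barcodes, Csf1, Csf2 and Ccl5 UMIs mostly in epithelial-like cells of both tumors, and Ccl7 UMIs lay mostly in epithelial-like cells of the Dll1+ tumor but in fibroblast-like cells of the Dll1- tumor. Epithelial-like cells held 72.3% of 21019 Ccl7 UMIs in the Dll1+ library and 8.57% of 5461 in the Dll1- library. Fibroblast-like cells held 19.4% of the Ccl7 UMIs in the Dll1+ and 70.1% in the Dll1- library. For Ccl2, epithelial-like cells held 91.4% of 42152 UMIs in the Dll1+ library and 78.4% of 14647 in the Dll1- library. The cells had been stained for CD31, CD45 and Ter119 before sorting, and the sort and the level per cell cannot be told apart in these shares; epithelial-like cells were 84.7% of Dll1+ and 86.5% of Dll1- cells.

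**Figure D1:**
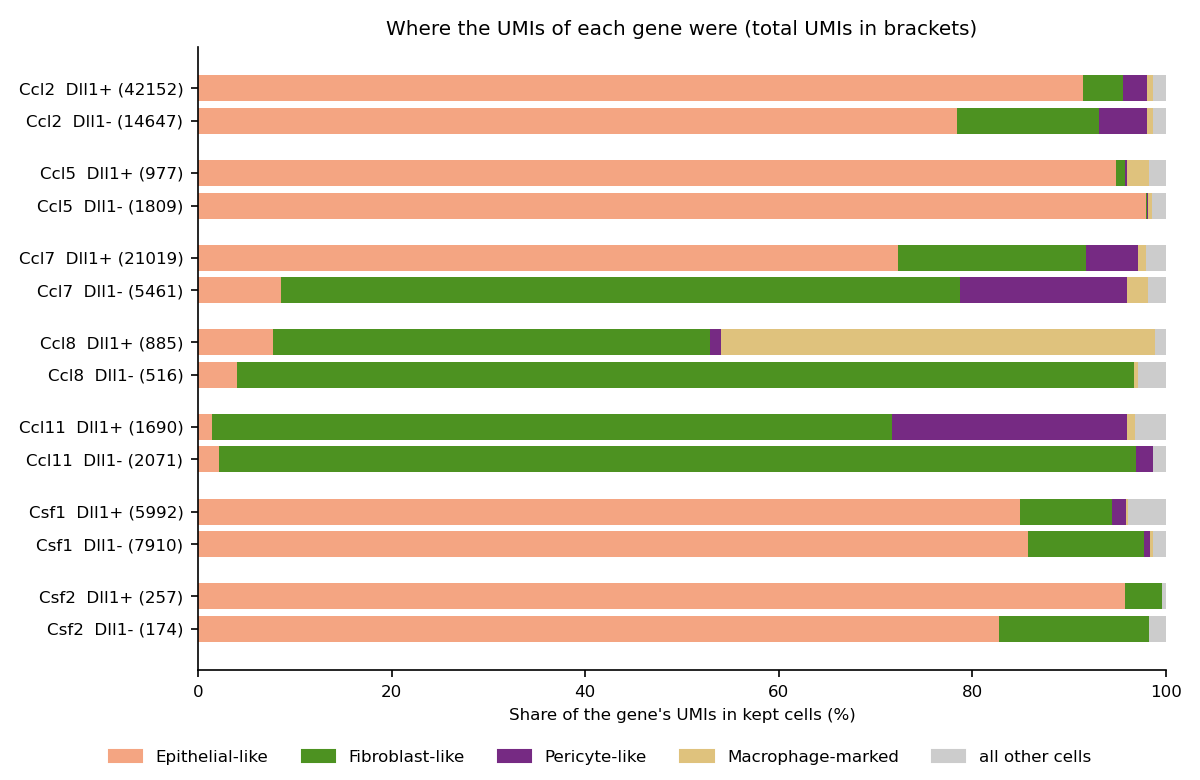
Share (%) of each gene's UMIs found in each cell class, with the Dll1+ tumor above the Dll1- tumor for each gene and total UMIs in brackets. The Ccl7 bar is 72.3% epithelial-like in the Dll1+ tumor and 8.57% in the Dll1- tumor, and macrophage-marked barcodes hold 44.9% of the Ccl8 UMIs of the Dll1+ tumor.

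In epithelial-like cells the Ccr2 ligands Ccl2 and Ccl7 were higher in the Dll1+ tumor, while Csf1 was at the same level within 1.5-fold. Of the 7 genes, all with at least 30 UMIs, 4 were at least 1.5-fold higher in the Dll1+ tumor, 0 were lower and 3 lay between these limits. The median log2 ratio of the 7 was 0.61. Of all 15286 genes measured in these cells 20.5% passed 1.5-fold upward and 5.95% downward, and their median log2 ratio was 0.20. Each log2 ratio divides the Dll1+ by the Dll1- level after 1 CPM is added to both. Its bounds are computed with nothing added, so for genes with few UMIs they can lie beyond the ratio. With edgeR's TMM factors, which scale libraries by a trimmed mean of ratios, epithelial-like ratios shift by -0.26. Then 2 of the 7 genes, Ccl2 and Ccl7, stay at least 1.5-fold higher, while Ccl5, at -0.78, is lower. Of all genes 13.5% are higher and 10.4% lower with these factors.

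Ccl2, the main attractant of classical monocytes, was at 464 CPM (459.5 to 468.8; 38546 UMIs) in Dll1+ epithelial-like cells and at 109 CPM (107 to 111; 11481 UMIs) in Dll1- ones. The log2 ratio was 2.09 (2.07 to 2.13). In the Dll1+ tumor this level lay close to that of its fibroblast-like cells, at 83.9% of it, and in the Dll1- tumor at 20.3%. At least 1 Ccl2 UMI was found in 32.3% (31.3 to 33.3) of Dll1+ and 17.4% (16.7 to 18.3) of Dll1- epithelial-like cells, whose median depths were 8028 and 10604 UMIs. Thinned to 2000 UMIs per cell, without 611 and 232 cells of lower depth, 20.8% (19.9 to 21.7) of Dll1+ and 8.45% (7.87 to 9.06) of Dll1- cells still had one. Endothelial-like cells, the class with the lowest Ccl2 level in both tumors, gave 5.49% and 4.64% as measured, with medians of 4698 and 3730 UMIs per cell, and 1.36% and 3.52% after thinning.

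Ccl2 counts were concentrated in few cells. Cells with at least 10 Ccl2 UMIs numbered 961 of 8199 in the Dll1+ and 349 of 8764 in the Dll1- epithelial-like cells and held 88.3% and 73.7% of the class's Ccl2 UMIs, with up to 335 and 126 UMIs in 1 cell. With each cell counted at no more than 10 UMIs the log2 ratio was 1.45. The high cells were deeper than the others, with medians of 13669 UMIs in the Dll1+ and 15488 in the Dll1- tumor, against 7398 and 10408 in cells with fewer than 10. They carried the epithelial marker list at 7705 and 14622 CPM and the fibroblast list at 95.5 and 21.6 CPM, where fibroblast-like cells carried it at 52722 and 32208 CPM. In epithelial-like cells with fewer than 10 Ccl2 UMIs the epithelial list was at 9122 and 13382 CPM and the fibroblast list at 77.7 and 31.2 CPM.

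Ccl7, a second Ccr2 ligand that also binds Ccr1 and Ccr3, showed the widest difference of the 7 genes in epithelial-like cells. It was at 183 CPM (180.1 to 185.9; 15197 UMIs) in the Dll1+ and 4.43 CPM (4.04 to 4.85; 468 UMIs) in the Dll1- epithelial-like cells, a log2 ratio of 5.08 (5.24 to 5.51). The Dll1- level was no higher than that of Dll1- endothelial-like cells, 6.09 CPM (2.63 to 12.0), so most of it cannot be told from background, but 6 Dll1- cells with at least 10 UMIs held 19.9% of the UMIs. The share of cells with at least 1 Ccl7 UMI was 2.81% (2.47 to 3.17) in epithelial-like and 2.14% (0.79 to 4.61) in endothelial-like cells of the Dll1- tumor. In the Dll1+ tumor the shares were 19.6% (18.7 to 20.5) in epithelial-like and 3.53% (1.63 to 6.59) in endothelial-like cells. After thinning they were 11.3% (10.6 to 12.0) in Dll1+ and 0.73% (0.56 to 0.93) in Dll1- epithelial-like cells. Of the fibroblast-like level of the same tumor, epithelial-like cells had 14.1% for Ccl7 in the Dll1+ tumor and 0.47% in the Dll1- tumor. For the 8 fibroblast markers the same percentage had a median of 0.10 in both tumors and a range of 0.06 to 10.7 in the Dll1+ and 0.07 to 0.91 in the Dll1- tumor.

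Csf1 was near level between the tumors' epithelial-like cells. It was at 61.3 CPM (59.6 to 63.0; 5090 UMIs) in the Dll1+ and 64.2 CPM (62.6 to 65.7; 6782 UMIs) in the Dll1- tumor, a log2 ratio of -0.06 (-0.12 to -0.01). The sign of this small ratio changed with the processing. Csf1 counts were less concentrated in high cells than those of Ccl2: cells with at least 10 UMIs held 13.2% and 8.60% of its UMIs. After thinning 10.8% (10.1 to 11.6) of Dll1+ and 10.6% (9.93 to 11.2) of Dll1- cells had a Csf1 UMI. For Ccl2 these shares were 20.8% and 8.45%.

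Ccl5, which attracts T cells and monocytes through receptors of the Ccr family, and Csf2, a growth factor of granulocytes and macrophages, were found in few epithelial-like cells. Ccl5 was at 11.2 CPM (10.5 to 11.9; 927 UMIs) in Dll1+ and 16.8 CPM (16.0 to 17.6; 1772 UMIs) in Dll1- epithelial-like cells, a log2 ratio of -0.55 (-0.70 to -0.47). UMIs of Ccl5 were found in 171 Dll1+ and 174 Dll1- cells, and 20 and 47 cells with at least 10 UMIs held 56.1% and 85.2% of them. Of these cells 0 of 20 and 0 of 47 had a UMI of the 7 T and NK cell markers, and they carried the epithelial list at 10198 and 15284 CPM. The Ccl5 ratio lay close to the 1.5-fold limit and rested on those cells: with no more than 10 UMIs counted per cell it was 0.07. Csf2 was at 2.96 CPM (2.60 to 3.36; 246 UMIs in 68 cells) in Dll1+ and 1.36 CPM (1.15 to 1.60; 144 UMIs in 33 cells) in Dll1- epithelial-like cells, a log2 ratio of 0.75 (0.82 to 1.43).

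Ccl8, in mouse a ligand of Ccr8, and Ccl11, the eosinophil attractant eotaxin that acts on Ccr3, were near 0 in epithelial-like cells. Ccl8 had 69 Dll1+ and 21 Dll1- UMIs, 0.83 and 0.20 CPM, which counted among the 4 higher genes with a log2 ratio of 0.61 (1.34 to 2.84). These levels were 0.65% and 0.17% of the fibroblast-like level in the same tumor, within the range of the fibroblast markers above. Ccl11 had 25 Dll1+ and 44 Dll1- UMIs, 0.08% and 0.09% of the fibroblast-like level. Both are read as background in these cells. In Dll1+ epithelial-like cells Ccl2 and Ccl7 thus lay above, and Ccl11 and Ccl8 of the same cluster within, the range of the fibroblast markers, whose top value was that of Pdpn, a leading gene of a tumor cell sub-state.

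**Figure D2:**
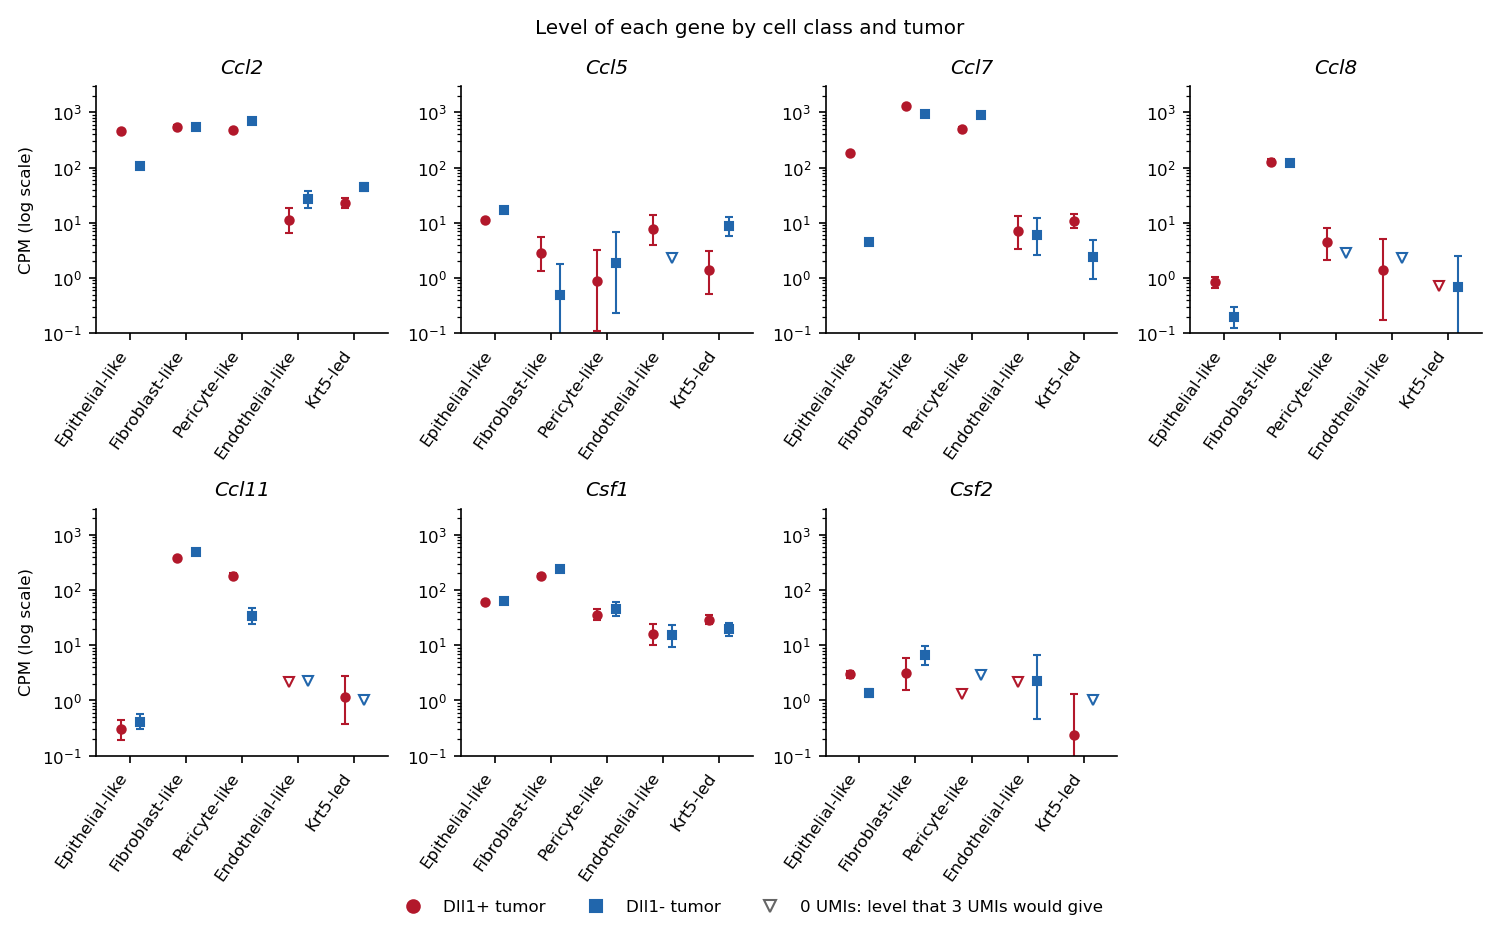
CPM of each gene in 5 cell classes (log axis, 95% counting intervals), with the Dll1+ tumor left of the Dll1- tumor and open triangles at the level that 3 UMIs would give where a gene had 0 UMIs. In epithelial-like cells Ccl2 stands at 464 and 109 CPM and Ccl7 at 183 and 4.43 CPM in the Dll1+ and Dll1- tumors, while Ccl8 and Ccl11 stay below 1 CPM.

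In fibroblast-like cells most of the 7 genes were at like levels in the tumors. Of 6 genes with at least 30 UMIs 0 were at least 1.5-fold higher in the Dll1+ tumor, 1 was lower and 5 lay between. The median of these 6 log2 ratios was -0.16. Of all 10158 genes measured there 8.79% passed 1.5-fold upward and 5.38% downward, with a median of 0.04. Ccl2 was at 553 CPM (527 to 580; 1738 UMIs) in Dll1+ and 535 CPM (513 to 559; 2154 UMIs) in Dll1- fibroblast-like cells, a log2 ratio of 0.05 (-0.05 to 0.14). Ccl7 was at 1299 CPM (1260 to 1340) and 952 CPM (922 to 983), a ratio of 0.45 (0.38 to 0.51). Ccl8 was at 127 CPM (115 to 140.1) and 119 CPM (108 to 130.0), a ratio of 0.10 (-0.10 to 0.29). Ccl7 was thus the gene with the highest ratio, yet it stayed below the 1.5-fold limit.

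Ccl11 and Csf1 were lower in Dll1+ fibroblast-like cells, though by less than 1.5-fold. Ccl11 was at 378 CPM (357 to 399.9) in the Dll1+ and 488 CPM (467 to 510.0) in the Dll1- tumor, a log2 ratio of -0.37 (-0.47 to -0.26). Csf1 was at 182 CPM (167 to 197) and 236 CPM (221 to 252), a ratio of -0.38 (-0.53 to -0.23). The 1 gene past the limit was Csf2, with 10 UMIs in 3 Dll1+ cells and 27 UMIs in 6 Dll1- cells, a ratio of -0.88 (-2.29 to 0.02). Ccl5 had 9 Dll1+ and 2 Dll1- UMIs and was not counted. A Ccl11 UMI was found in 64.3% (58.9 to 69.4) of Dll1+ and 78.0% (74.4 to 81.3) of Dll1- cells, or 40.2% (34.9 to 45.8) and 55.5% (51.2 to 59.7) after thinning. The direction of the Ccl11 ratio changed with the weighting: with sub-states of both tumors weighted alike it was 0.16, and in cells with the fewest markers of other classes -0.04.

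Pericyte-like cells, named for the cells that wrap capillaries, also had Ccl2 and Ccl7 and differed most between the tumors in Ccl11. Of 4 genes measured 1 was at least 1.5-fold higher in the Dll1+ tumor, 1 was lower and 2 lay between, where 16.8% of 8418 genes were higher and 4.13% lower. Ccl11 was at 182 CPM (165 to 200.2; 410 UMIs) in Dll1+ and 34.1 CPM (23.9 to 47.2; 36 UMIs) in Dll1- pericyte-like cells, a log2 ratio of 2.38 (1.92 to 2.95). A Ccl11 UMI was found in 23.6% (19.0 to 28.7) of Dll1+ and 7.47% (4.04 to 12.4) of Dll1- cells. These cells also carried fibroblast markers, the list summing to 11088 CPM in the Dll1+ tumor, against 14599 CPM in the Dll1- tumor, and the 8 markers differed in direction. Relative to fibroblast-like cells of the same tumor, Dcn was at 4.20% in Dll1+ and 0.09% in Dll1- pericyte-like cells, Lum at 2.92% and 0.07%, Fap at 62.7% and 34.7% and Pdpn at 0.60% and 0.46%, while Col1a1 was at 39.8% and 135%, Col1a2 at 25.6% and 78.4%, Col3a1 at 14.0% and 20.8% and Pdgfra at 0.96% and 1.27%. The part of fibroblast RNA in the Ccl11 result was not tested.

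Ccl7 was lower in Dll1+ pericyte-like cells, at 503 CPM (474 to 533), against 892 CPM (836 to 951) in Dll1- ones, a log2 ratio of -0.83 (-0.95 to -0.70). Ccl2 was at 470.3 CPM (442 to 499) in Dll1+ and 687 CPM (637 to 738) in Dll1- cells, a ratio of -0.54 (-0.68 to -0.41). The 196 unnamed Dll1+ cells had Rgs5 and Pdgfrb, but also Krt79, among their leading genes and are not in these ratios. Their Ccl2 level was 505 CPM (456 to 558). Csf1 was at 35.9 CPM (28.5 to 44.6) in Dll1+ and 46.4 CPM (34.3 to 61.3) in Dll1- cells, with overlapping intervals. Csf2 had 0 UMIs in pericyte-like cells of both tumors, which allows up to 1.33 CPM in the Dll1+ tumor, against 2.84 CPM in the Dll1- tumor.

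**Figure D3:**
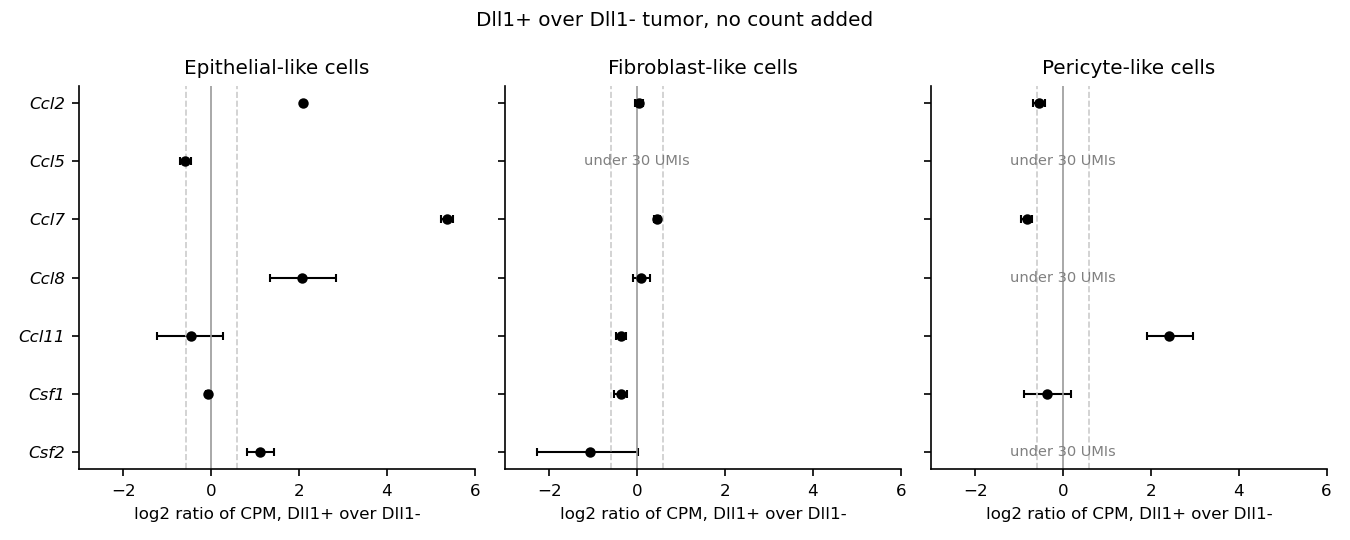
Log2 ratio of CPM, Dll1+ over Dll1-, of each gene in 3 cell classes, with no count added and with 95% conditional binomial bounds (counting error only); dashed lines mark 1.5-fold. Ccl7 and Ccl2 stand to the right in epithelial-like cells and Ccl11 in pericyte-like cells, and genes with fewer than 30 UMIs over both tumors are not drawn.

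Endothelial-like and Krt5-led cells had low levels. In endothelial-like cells Ccl2 was at 11.3 CPM (16 UMIs) in the Dll1+ and 26.6 CPM (35 UMIs) in the Dll1- tumor, but 1 Dll1- cell held 17 of those UMIs, and the direction changed with the processing. Csf1 was at 16.3 CPM (10.3 to 24.5) in Dll1+ and 15.2 CPM (9.30 to 23.5) in Dll1- endothelial-like cells. Of 2 genes measured 0 were higher and 1 was lower, where 9.93% of 7874 genes were higher and 4.43% lower. In Krt5-led cells Ccl2 was at 22.5 CPM (18.3 to 27.5) in the Dll1+ and 44.9 CPM (37.5 to 53.2) in the Dll1- tumor, where 4 cells held 86.4% of the UMIs, and here too the direction changed with the processing. Csf1 was at 29.1 CPM (24.2 to 34.7) in Dll1+ and 19.7 CPM (14.96 to 25.5) in Dll1- Krt5-led cells. Of 4 genes measured there 1, Ccl7, was higher and 2, Ccl2 and Ccl5, were lower, where 16% of 10197 genes were higher and 8.42% lower. Ccl7 had 46 Dll1+ and 7 Dll1- UMIs in Krt5-led cells, 20 of the 46 in 1 cell, and Ccl5 had 6 and 26, the 26 in 1 cell.

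Set in order over the 5 classes and both tumors, the levels of Ccl11 and Ccl8 were highest in fibroblast-like cells of both tumors. For Ccl11 the pericyte-like cells of both tumors came next, and for Ccl8 all neighbouring levels below fibroblast-like cells overlapped in their intervals. Fibroblast-like cells were highest for Ccl7, Ccl8, Ccl11, Csf1 and Csf2, Dll1- pericyte-like cells for Ccl2 and Dll1- epithelial-like cells for Ccl5. For Ccl2 the Dll1+ and Dll1- fibroblast-like levels overlapped in their intervals, and so did the Dll1+ pericyte-like and epithelial-like levels. For Csf1 the epithelial-like levels of the tumors overlapped, and so did each neighbouring pair below them. All neighbouring Csf2 levels overlapped.

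Macrophage-marked barcodes, few as they were, held a large part of the Ccl8 counts of the Dll1+ tumor. There 39 barcodes held 397 Ccl8 UMIs (1121 CPM, 1013 to 1236), or 44.9% of all 885 Ccl8 UMIs in kept cells, against 2 UMIs (8.85 CPM, 1.07 to 32.0) in the 15 Dll1- barcodes. The Dll1+ UMIs came from 12 barcodes, with 134 in 1 of them, and 5 barcodes with at least 10 UMIs held 92.9%. Most Ccl12 UMIs were there too, with 93 Dll1+ and 20 Dll1- UMIs, against 18 and 5 in epithelial-like cells. Ccl2 was at 675 CPM (592 to 766) in the Dll1+ and 425 CPM (344 to 519) in the Dll1- barcodes. These barcodes also carried the T and NK cell list at 183 CPM in the Dll1+ tumor, against 575 CPM in the Dll1- tumor, the epithelial list at 5120 and 8325 CPM and the Dll1+ ones the fibroblast list at 3963 CPM, and the part of other cells in their counts was not tested.

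Within epithelial-like cells the levels of Ccl2, Ccl5, Ccl7, Csf1 and Csf2 differed between sub-states, which are called here by their leading genes. The 7 genes themselves were left out of the clustering. Several sub-states were almost all of 1 tumor: the Cxcl10 and Edn1 sub-state held 3567 Dll1+ and 2 Dll1- cells, the Ptn and Rbp7 sub-state 1629 and 14, and the Car12 and Atp6v1b1 sub-state 1228 and 5, so in these the sub-state and the library cannot be told apart. Ccl2 was at 638 CPM (628 to 647) in Cxcl10 and Edn1 cells and at 716 CPM (706 to 726) in Ptn and Rbp7 cells of the Dll1+ tumor, and these sub-states held 45.3% and 48.3% of its epithelial-like Ccl2 UMIs. Car12 and Atp6v1b1 cells had 18.6 CPM (15.6 to 22.1). Ccl7 was highest in Ptn and Rbp7 cells, at 409.5 CPM (402 to 417), against 154 CPM (149 to 158) in Cxcl10 and Edn1 cells, and Ptn and Rbp7 cells held 70.0% of the Dll1+ epithelial-like Ccl7 UMIs in 19.9% of the cells.

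In the 3 sub-states that held 50 cells or more from both tumors the difference was smaller. In Lalba and Saa1 cells (1398 Dll1+ and 5103 Dll1-) Ccl2 was lower in the Dll1+ tumor, at 97.5 CPM (93.0 to 102), against 140.2 CPM (137 to 143) in the Dll1- tumor, a log2 ratio of -0.52 (-0.60 to -0.45). In Lgals3 and S100a6 cells (247 and 2966) it was higher, at 183 CPM (167 to 201), against 65.8 CPM (62.8 to 68.9), a ratio of 1.47 (1.33 to 1.63), and 11 Dll1+ and 49 Dll1- cells had at least 10 UMIs. In mitotic Ube2c cells (119 and 583) it was at 72.3 CPM (62.4 to 83.4) in Dll1+ and 48.4 CPM (44.6 to 52.4) in Dll1- cells, a ratio of 0.57 (0.34 to 0.82). With these 3 sub-states weighted alike the epithelial-like Ccl2 ratio was 0.47 in place of 2.09, and the Ccl7 ratio 1.51 in place of 5.08. Ccl7 was higher in the Dll1+ cells of all 3, with ratios of 0.99 (0.87 to 1.37), 2.11 (1.86 to 2.99) and 1.43 (0.88 to 2.72), at Dll1+ levels of 12.0, 16.5 and 7.27 CPM, where Dll1+ endothelial-like cells had 7.09 CPM (3.40 to 13.0).

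In the Dll1+ tumor Csf1 and Ccl5 were highest in Cxcl10 and Edn1 cells among the epithelial-like sub-states of 50 cells or more. Csf1 was at 119.7 CPM (116 to 124) in Cxcl10 and Edn1 cells of the Dll1+ tumor and at 22.6 CPM (20.8 to 24.5) in its Ptn and Rbp7 cells, so of the 2 sub-states with high Ccl2 only the first had high Csf1. In Lgals3 and S100a6 cells Csf1 was alike, at 89.3 CPM (78.0 to 102) in Dll1+ and 92.5 CPM (89.0 to 96.1) in Dll1- cells. Ccl5 in those cells was at 2.41 CPM (0.89 to 5.25; 6 UMIs) in the Dll1+ and 43.0 CPM (40.6 to 45.5; 1211 UMIs) in the Dll1- tumor, a ratio of -3.69 (-5.60 to -3.03), with 38 of the 47 Dll1- cells of at least 10 UMIs there. In the Dll1+ tumor 16 of 20 such cells were Cxcl10 and Edn1 cells, where Ccl5 was at 22.9 CPM (21.1 to 24.7). Of the Csf2 UMIs 78.5% of Dll1+ epithelial-like ones were in Cxcl10 and Edn1 cells and 91.7% of Dll1- ones in Lgals3 and S100a6 cells. In Lgals3 and S100a6 cells Csf2 was higher in the Dll1+ tumor, unlike Ccl5, at 14.5 CPM (10.1 to 20.1; 36 UMIs), against 4.69 CPM (3.92 to 5.56; 132 UMIs) in the Dll1- tumor, a ratio of 1.44 (1.05 to 2.17). That Dll1+ level was above the 7.05 CPM (6.09 to 8.11) of Cxcl10 and Edn1 cells. It rested on few cells: 3.24% of 247 Dll1+ and 0.84% of 2966 Dll1- Lgals3 and S100a6 cells had a Csf2 UMI, and 1 and 6 had at least 10.

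**Figure D4:**
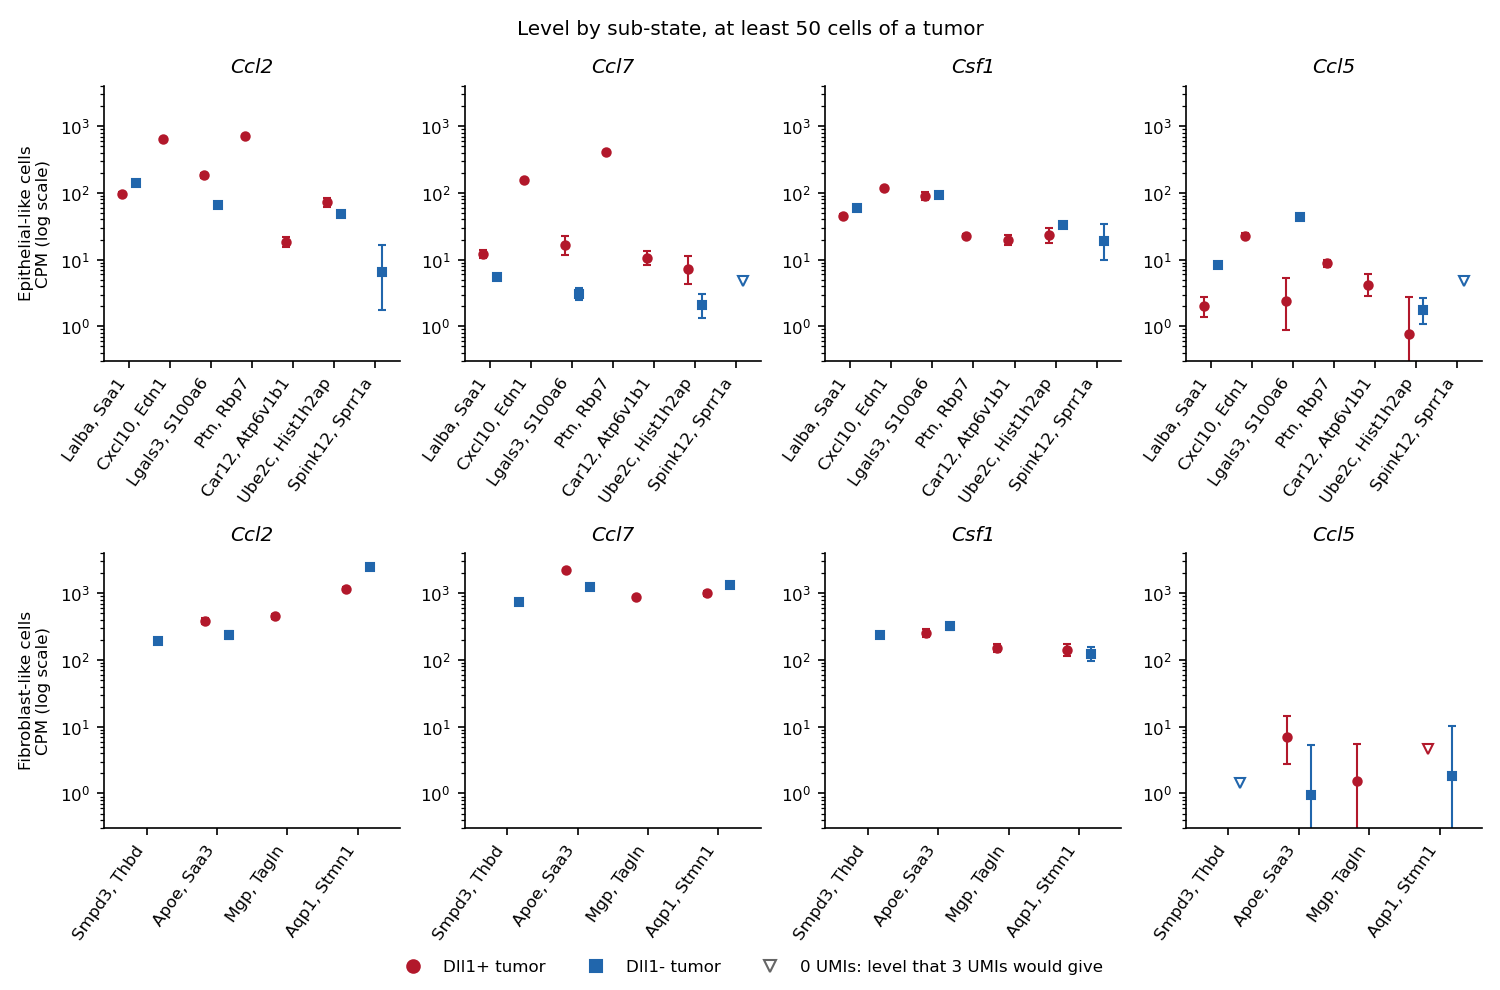
CPM (log axis, 95% counting intervals) of 4 genes in the sub-states of epithelial-like cells (top) and fibroblast-like cells (bottom), with the Dll1+ tumor left of the Dll1- tumor and open triangles at the level that 3 UMIs would give. Ccl2 stands at 638 and 716 CPM in Cxcl10, Edn1 and Ptn, Rbp7 cells of the Dll1+ tumor, which have under 50 Dll1- cells, and at 97.5 and 140.2 CPM in Lalba, Saa1 cells of the Dll1+ and Dll1- tumors.

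Levels in cells with and without a Dll1 UMI differed in no single direction. In the Dll1+ tumor epithelial-like cells with a Dll1 UMI had 489 CPM (481 to 497) of Ccl2 and cells without one 452 CPM (446 to 457), at median depths of 9649 and 7352 UMIs. Within Cxcl10 and Edn1 cells the levels were 643 CPM (628 to 659) with and 634 CPM (622 to 646) without a Dll1 UMI, and within Ptn and Rbp7 cells 655 CPM (639 to 672) and 751 CPM (737 to 764). Csf1 was at 109 CPM (103 to 115) with and 126 CPM (121 to 132) without a Dll1 UMI in Cxcl10 and Edn1 cells. In the Dll1- tumor 316 epithelial-like cells with a Dll1 UMI had 149 CPM (138 to 160) of Ccl2 and cells without one 107 CPM (105 to 109), at median depths of 13503 and 10507 UMIs. Within Dll1- Lalba and Saa1 cells Ccl2 was at 183 CPM (169 to 197) with and 138 CPM (135 to 141) without a Dll1 UMI. Ccl5 there was at 32.2 CPM (26.5 to 38.6; 114 UMIs) in 222 cells with a Dll1 UMI. In the 4881 cells without one it was at 6.99 CPM (6.34 to 7.69; 425 UMIs). Of these 5103 cells 9 had at least 10 Ccl5 UMIs. How many cells held the 114 UMIs was not counted, so the Ccl5 difference may rest on few cells. Within Dll1- Lgals3 and S100a6 cells Csf1 was at 160.2 CPM (136 to 188) in 74 cells with and 90.1 CPM (86.6 to 93.8) in 2892 cells without a Dll1 UMI, while the Ccl2 intervals overlapped. A cell without a Dll1 UMI may still express Dll1 at this depth.

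Fibroblast-like sub-states also differed, and the Ccl2 and Ccl7 differences between the tumors had opposite signs in the 2 that held 50 cells or more of both. In Apoe and Saa3 cells (104 Dll1+ and 131 Dll1-) Ccl7 was at 2208 CPM (2117 to 2302) in the Dll1+ and 1247 CPM (1181 to 1316) in the Dll1- tumor, a log2 ratio of 0.82 (0.73 to 0.92), and Ccl2 at 381 CPM (343 to 421) and 236 CPM (208 to 267), a ratio of 0.69 (0.45 to 0.92). In Aqp1 and Stmn1 cells (76 and 60) Ccl2 was lower in the Dll1+ tumor, at 1149 CPM (1068 to 1234), against 2506 CPM (2375 to 2643) in the Dll1- tumor, a ratio of -1.12 (-1.26 to -0.996), and Ccl7 at 999 CPM (924 to 1079) and 1350.1 CPM (1254 to 1452), a ratio of -0.43 (-0.59 to -0.28). These cells were 22.6% of the Dll1+ and 10.5% of the Dll1- class and held 43.3% and 63.0% of its Ccl2 UMIs, with at least 10 UMIs in 12 Dll1+ and 26 Dll1- cells. Ccl2 was at 450.3 CPM (414 to 488) in 132 Dll1+ Mgp and Tagln cells. It was at 192 CPM (174 to 212) in 338 Dll1- Smpd3 and Thbd cells. Mgp and Tagln cells were 39.3% of the Dll1+ and 7.68% of the Dll1- class. Smpd3 and Thbd cells were 7.14% and 59.0%, so the class ratios above compare unlike mixtures of sub-states. Ccl11 was at 150 CPM in Dll1+ Mgp and Tagln cells and at 538 CPM in Dll1- Smpd3 and Thbd cells. Csf1 was at 254 CPM (224 to 287) in Dll1+ and 319 CPM (286 to 355) in Dll1- Apoe and Saa3 cells, and Ccl11 was higher in the Dll1+ tumor there, at 647 and 540.4 CPM (ratio 0.26, 0.10 to 0.43).

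Ccl7 was found more often in cells that had a Ccl2 UMI, with overlapping intervals only in Dll1- pericyte-like cells among the 3 classes compared. After thinning to 2000 UMIs, 34.3% (32.0 to 36.7) of Dll1+ epithelial-like cells with a Ccl2 UMI also had a Ccl7 UMI, against 5.19% (4.64 to 5.78) of those without, and in the Dll1- tumor, where the Ccl7 level was near that of endothelial-like cells, 2.77% (1.70 to 4.25) and 0.54% (0.39 to 0.73). In fibroblast-like cells the shares were 70.1% (58.6 to 80.0) with and 40.7% (34.5 to 47.1) without Ccl2 in the Dll1+ tumor, and 72.7% (63.4 to 80.8) and 34.4% (29.9 to 39.1) in the Dll1- tumor. In pericyte-like cells they were 48.7% (37.2 to 60.3) and 17.0% (12.3 to 22.6) in the Dll1+ tumor, and 42.6% (30.7 to 55.2) and 27.6% (19.0 to 37.5) in the Dll1- tumor. Ccl11, which lies next to Ccl7, was not found clearly more often with Ccl2 in fibroblast-like cells. Its shares were 44.2% (32.8 to 55.9) with and 39.0% (32.9 to 45.4) without Ccl2 in the Dll1+ tumor. In the Dll1- tumor they were 48.2% (38.6 to 57.9) and 57.3% (52.5 to 62.0). With and without Ccl7, Ccl11 was found in 53.2% (45.0 to 61.3) and 28.4% (21.7 to 35.8) of Dll1+ fibroblast-like cells. In Dll1- ones the shares were 53.5% (46.8 to 60.1) and 57.0% (51.3 to 62.5). Csf1 was found in 17.5% (15.7 to 19.5) of Dll1+ epithelial-like cells with Ccl2 and 9.07% (8.36 to 9.82) of those without. Cells of 1 library share its depth and sub-states, so these shares describe the libraries.

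**Figure D5:**
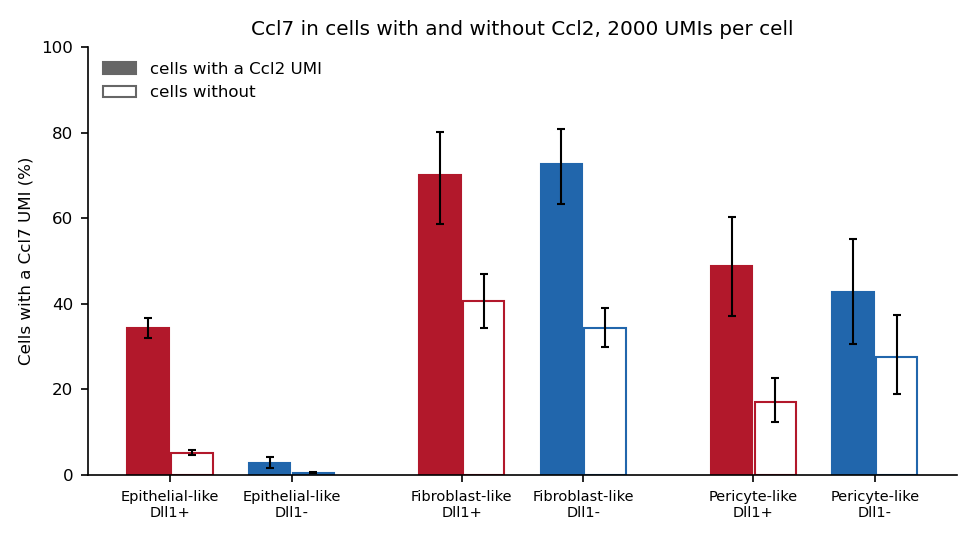
Share (%) of cells with a Ccl7 UMI among cells with (filled bars) and without (open bars) a Ccl2 UMI in 3 classes of each tumor, at 2000 UMIs per cell and with 95% Clopper-Pearson intervals. In Dll1+ epithelial-like cells the shares are 34.3% and 5.19%, and in fibroblast-like cells of both tumors the filled bars reach 70.1% and 72.7%.

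Ccr1 and Csf1r, receptors of monocytes and macrophages, were at their highest levels in macrophage-marked barcodes, which also held Ccl2, Ccl7 and, in the Dll1+ tumor, Ccl8. Ccr1 and Ccr2 were at 76.2 and 42.3 CPM and Csf1r at 265 CPM in the 39 Dll1+ macrophage-marked barcodes. In the 15 Dll1- ones Ccr1 and Csf1r were at 48.7 and 79.6 CPM and Ccr2 at 0 UMIs, and none of these 3 was above 0.33 CPM in epithelial-like cells of either tumor. Csf1r served to pick these barcodes, so its level there is no finding. Csf2ra, a subunit of the Csf2 receptor, was at 27.8 CPM in Dll1+ and 21.3 CPM in Dll1- epithelial-like cells, while its partner Csf2rb was at 0.35 CPM in both. Of 7 measured genes of the list of receptors and scavengers, which held 13, Sdc4, a heparan sulfate proteoglycan, was higher in Dll1+ epithelial-like cells at 1811 CPM, against 1092 CPM in Dll1- ones (ratio 0.73). Its relative Sdc1 was lower at 40.6 CPM, against 109 CPM (ratio -1.41), and 5 lay between, where 20.5% of all genes were higher and 5.95% lower. In fibroblast-like cells 0 were higher, 3 were lower and 4 lay between, where 8.79% of all genes were higher and 5.38% lower. The lower ones were Ackr1 and Ackr2, atypical receptors that bind chemokines without signaling for migration, and Dpp4, a protease that trims chemokines. Dpp4 was also a leading gene of Smpd3 and Thbd cells, 7.14% of Dll1+ and 59.0% of Dll1- fibroblast-like cells. The part of that make-up in these ratios was not tested. Ackr1 was at 54.7 CPM in the Dll1+ tumor, against 87.2 CPM in the Dll1- tumor, Ackr2 at 5.73 and 14.9 CPM and Dpp4 at 113 and 205 CPM.

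Of 13 other chemokines and myeloid growth factors measured in epithelial-like cells 8 were at least 1.5-fold higher in the Dll1+ tumor, 1 was lower and 4 lay between, where 20.5% of all genes were higher and 5.95% lower. Their median log2 ratio was 0.67. The higher ones included Cx3cl1, the ligand of Cx3cr1 on monocytes, at 93.3 CPM in the Dll1+ tumor, against 18.7 CPM in the Dll1- tumor (ratio 2.26), Il34, the other ligand of Csf1r, at 9.80 and 1.27 CPM (2.25), and Kitl, the ligand of the receptor Kit, at 36.3 and 18.7 CPM (0.92). Ccl28 was at 4.13 and 0.13 CPM (2.18), Ccl6 at 7.80 and 0.92 CPM (2.20) and Ccl9 at 8.95 and 3.87 CPM (1.03). Ccl17 (ratio 0.67) and Cxcl12 (0.64) made up the 8, each under 2 CPM in both tumors. Cxcl12 was at 1.69 CPM in Dll1+ and 0.72 CPM in Dll1- epithelial-like cells, where fibroblast-like cells had 1517 and 925 CPM. Its level in epithelial-like cells thus cannot be told from background. Ccl4 was the lower one, at 0.85 CPM in the Dll1+ tumor, against 5.53 CPM in the Dll1- tumor (-1.82). In fibroblast-like cells 4 of 7 were higher, 1 was lower and 2 lay between, where 8.79% of all genes were higher and 5.38% lower. Cxcl12, the ligand of Cxcr4, was at 1517 CPM in Dll1+ and 925 CPM in Dll1- fibroblast-like cells (ratio 0.71), Csf3 at 29.9 and 14.9 CPM (0.96), Cx3cl1 at 14.6 and 3.48 CPM (1.80) and Ccl20 at 7.64 and 4.23 CPM (0.73, 24 and 17 UMIs). Ccl20 was at 308 CPM in Dll1+ and 234 CPM in Dll1- epithelial-like cells. Its level in fibroblast-like cells thus cannot be told from background. Kitl was the lower one, at 26.7 CPM in Dll1+ and 54.2 CPM in Dll1- fibroblast-like cells (-0.99).

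Of 17 measured signals that induce these chemokines and their receptors 3 were higher in Dll1+ epithelial-like cells, 1 was lower and 13 lay between, shares near the 20.5% and 5.95% of all genes. Ifngr1, a subunit of the interferon gamma receptor, was at 28.5 CPM in the Dll1+ tumor, against 16.5 CPM in the Dll1- tumor (ratio 0.75), Tlr4, the receptor of lipopolysaccharide, at 9.52 and 5.95 CPM (0.60), Tnfrsf1b at 1.64 and 0.54 CPM (0.78) and the lower Il1a at 0.43 and 1.58 CPM (-0.85). Of 23 transcription factors and brakes 6 were higher, 3 were lower and 14 lay between, against the same 20.5% and 5.95%. The NF-kB subunits Nfkb1 (117 CPM in the Dll1+ tumor, against 62.6 CPM in the Dll1- tumor), Rela (157 and 84.5), Nfkb2 (41.6 and 25.7) and Relb (48.9 and 31.0) were higher, with ratios of 0.89, 0.88, 0.67 and 0.64, and Rel was lower at 14.0 and 22.9 CPM (-0.67). Zfp36, a protein that speeds decay of cytokine mRNAs, was higher at 925 CPM in the Dll1+ tumor, against 573 CPM in the Dll1- tumor (0.69). Stat3 was lower at 60.8 CPM in the Dll1+ tumor, against 147 CPM in the Dll1- tumor (-1.26), and Cebpb at 1017 and 1729 CPM (-0.77). Nfkbia, which NF-kB induces, was at 1448 and 1415 CPM (0.03). With TMM factors Nfkb2, Relb, Zfp36, Sdc4, Ifngr1, Tlr4 and Cxcl12 came below 1.5-fold in epithelial-like cells (0.37 to 0.51), and Il13ra1 (-0.73), Tnfaip3 (-0.64), Atf3 (-0.69) and Hspa1a (-0.60) became lower. The higher and lower counts were then 7 and 1 of the 13 other chemokines and growth factors, 1 and 2 of the 17 signals and receptors and 3 and 4 of the 23 transcription factors and brakes, where 13.5% of all genes were higher and 10.4% lower.

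In fibroblast-like cells 2 of 16 measured signals and receptors were higher, 1 was lower and 13 lay between, shares near the 8.79% and 5.38% of all genes. Tnf was at 7.64 CPM in the Dll1+ tumor, against 3.23 CPM in the Dll1- tumor (ratio 1.03, 24 and 13 UMIs), Tlr2 at 13.7 and 8.45 CPM (0.64) and the lower Tlr4 at 11.8 and 19.6 CPM (-0.69). Of the 23 transcription factors and brakes 0 were higher, 1 was lower and 22 lay between, against the same 8.79% and 5.38%, the lower one being Nfkbiz at 359.0 CPM in Dll1+ and 539.6 CPM in Dll1- cells (-0.59). With TMM factors Tlr2 (0.58) came below the limit in fibroblast-like cells, and Il34 (-0.63) and Egr1 (-0.60) became lower.

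Digestion of a tumor can itself induce immediate early genes and chemokines, so these genes are given beside the results. Of 16 such genes in epithelial-like cells 1 was higher, 2 were lower and 13 lay between, where 20.5% of all genes were higher and 5.95% lower, and with TMM factors 4 were lower. Egr1 was at 1174 CPM in the Dll1+ tumor, against 559 CPM in the Dll1- tumor (ratio 1.07), the heat shock gene Hspb1 at 1132 and 2368 CPM (-1.06) and Fosb at 612 and 964 CPM (-0.66). In fibroblast-like cells 0 were higher, 2 were lower and 14 lay between, where 8.79% of all genes were higher and 5.38% lower. Atf3 was at 353 CPM in Dll1+ and 645 CPM in Dll1- fibroblast-like cells (-0.87) and Hspb1 at 171 and 354 CPM (-1.05). The part of digestion in the chemokine levels was not tested.

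The genes whose levels over the 10 class and tumor sums were most like those of each gene differed, with Creb3l1 first for both Ccl2 and Ccl7. Likeness is Pearson's r of log2 CPM plus 1 among 8695 genes, given as a description over 10 sums that share libraries and class sizes. For Ccl2 these were Creb3l1 (0.94), Ctsz (0.94), Zfp469 (0.94), S1pr2 (0.94) and Rora (0.93), and for Ccl7 Creb3l1 (0.96), Zfp651 (0.96), Pbxip1 (0.96), Sod3 (0.96) and Lrrc75a (0.96). Ccl7 had an r of 0.89 with Ccl2 and of 0.88 with Ccl11, and Ccl8 and Ccl11 had 0.82. For Ccl8 they were Dpep1, Emx2, Tnxb, Lum and Zadh2 (0.98 to 0.99), and for Ccl11 Scn7a, Galnt16, Shox2, Lama2 and Plac8 (0.99). For Csf1 they included Tbl2 (0.96), Entpd2 (0.95), Gabarap (0.95) and C4b (0.94). Csf2 was most like Ntn1 (0.91), Guk1, Kif13b, March8 and Nsmaf, and Ccl5 most like Kif16b (0.96), Pes1, Supt6, Socs6 and Susd4.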

How the data were processed

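The deposited values are raw UMI counts per gene and barcode, made by the authors. The file headers name Cell Ranger 4.0.0, and the submitters' processing notes name the build mm10. The lowest depth of a deposited barcode was 500 UMIs. The Dll1+ library held 117230907 UMIs over 13819 barcodes and the Dll1- library 135960457 over 13097.

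Barcodes were kept with at least 1000 UMIs, 500 genes and at most 20% mitochondrial UMIs. The automatic doublet threshold of scrublet marked 0 barcodes, so the 896 Dll1+ and 989 Dll1- barcodes with the highest scores were removed (0.8% per 1000 barcodes). Cells of the 2 libraries were clustered jointly in scanpy 1.11.5 with Leiden clusters from leidenalg 0.10.2 (Python 3.11.15; 2000 variable genes without the 7 genes, 30 components, 15 neighbours, resolution 0.6, sub-states 0.4). A class name needed at least 3 markers and 50% of a marker list, each in at least 20% of cells. Counts were summed by class and library and given as CPM. Intervals are exact Poisson (levels), Clopper-Pearson (shares) and conditional binomial (ratios). A gene counted as measured with 30 UMIs over both libraries. TMM factors came from edgeR 4.0.16. The ratio step was tested on simulated counts. In the files 32235 gene IDs (99.8%) were found in GENCODE M21.

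The 7 genes, the pathway lists and the markers were chosen with earlier results of these data known. Named genes are the 7, the listed genes past 1.5-fold and, for each of the 7, the 5 genes most like it with at least 20 CPM in 1 sum. Some genes that this rule names are not reported here. Alternatives covered the cell filters, doublets, clustering, scaling, depth and weighting.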

Additional observations from a re-analysis of the deposited data

How the results depend on the processing

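Over 13 alternatives and the 23 ratios of the 7 genes in the 5 classes, 197 of 289 values lay within the counting bounds of the ratio, 85 lay outside them and 7 called ratios changed sign. The bounds carry no added count, so ratios of genes with few UMIs can lie outside them by construction. The Ccl2 ratio in epithelial-like cells, 2.09, was 2.06 with at least 2000 UMIs per cell, 2.13 with a mitochondrial limit of 10%, 2.02 at a resolution of 1.2, 1.83 with TMM factors, 2.00 with 10 CPM added, 1.99 after thinning, 2.01 as a mean over cells, 2.18 in the 50% of cells with the fewest markers of other classes, 1.45 with no more than 10 UMIs per cell and 0.47 with shared sub-states weighted alike. The Csf1 ratio there, -0.06, was -0.32 with TMM factors, 0.10 after thinning, 0.14 as a mean over cells, -0.21 with shared sub-states weighted alike and -0.29 in cells with the fewest other markers. The Ccl2 ratio in fibroblast-like cells, 0.05, was 0.26, 0.20, -0.84 and -0.12 after thinning, as a mean over cells, with shared sub-states weighted alike and in cells with the fewest other markers. The Csf1 ratio there, -0.38, was -0.16 with shared sub-states weighted alike. Of the 7 genes 2 in place of 4 were higher in epithelial-like cells with TMM factors, with 10 CPM added and at a 2-fold limit. There 1 in place of 0 was lower at a resolution of 1.2, with TMM factors, as a mean over cells and with shared sub-states weighted alike. With TMM factors 13.5% of all genes were higher and 10.4% lower in epithelial-like cells. Shares of all genes are not given for the other alternatives. In fibroblast-like cells 1 in place of 0 was higher in cells with the fewest other markers and with no minimum of UMIs. There 0 in place of 1 were lower with 10 CPM added, after thinning, as a mean over cells and at 2-fold, and 2 with shared sub-states weighted alike. The Ccl2 ratio in endothelial-like cells, -1.16, turned to 0.27 with at least 2000 UMIs per cell, 0.34 with a mitochondrial limit of 10% and 1.35 with doublets left in. In Krt5-led cells the Ccl2 ratio, -0.96, turned to 2.02 with doublets left in, 1.83 in cells with the fewest other markers and 0.19 with no more than 10 UMIs per cell, and the Ccl5 ratio, -2.03, to 0.59 in cells with the fewest other markers. The cause was not tested. Leaving macrophage-marked barcodes in, counting no more than 10 UMIs per cell and TMM factors for the listed pathway genes were chosen after seeing the data. No paired analysis was possible because each group has 1 library. With 1 tumor per group, the tumor, the sort and the library cannot be told apart from Dll1.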
